A study of Mus musculus with 24 samples.

Results

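Colonic (COL) organoids that can switch on BRAF V600E together with p53 R172H were compared with and without induction, as 2 induced ("on") and 2 non-induced ("off") RNA-Seq libraries. These 4 libraries, chosen by their labels as the induced and non-induced cultures of the double-mutant genotype in the colon, were 4 of the 24 libraries of the series and 4 of its 12 colonic ones. All 4 carried the genotype BraffloxV600E/+; Trp53LSL-R172H/+; Villin::CreERT2 on strain C57BL/6N. The on cultures received 3.5 µM 4-hydroxytamoxifen (4-HT) for 24 hours, the off cultures ethanol, and RNA was taken on day 3 after recombination. The Cre transgene was thus present in off and on cultures alike, and its Villin promoter restricts it to the intestinal epithelium. On and off cultures also differed in 4-HT exposure and Cre activity, which cannot be told apart from the mutations here. Before recombination the floxed Braf allele encodes wild-type BRAF and the Trp53 LSL allele is silenced by a stop cassette, so off cultures had 1 active Trp53 allele. The paper's medium for colonic crypts held EGF, Noggin, R-Spondin1, Wnt3a and a GSK3 inhibitor, so Wnt agonists and EGF were supplied from outside. The age of the donor was not given in the sources used here. The study used 1 donor culture per genotype, so the 2 libraries of a group share an animal, and every p-value below measures the spread of culture and handling between duplicates, not the spread between mice. The comparison addresses which transcripts change when both mutations are switched on in colonic epithelium. Colonic cultures with BraffloxV600E/+ alone or Trp53LSL-R172H/+ alone were set beside it. They also carried Villin::CreERT2, were of the same strain and were induced alike.

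BRAF is a kinase that receives signals from RAS and passes them through MEK to ERK, which phosphorylates transcription factors of the ETS and AP-1 families. The V600E exchange makes BRAF signal without RAS, and ERK-induced phosphatases and Sprouty proteins then act as brakes. p53 is a transcription factor that halts the cell cycle or triggers death under stress. R172H, the mouse counterpart of a human hotspot, disrupts the DNA-binding domain, and here it was expressed beside 1 remaining wild-type allele. BRAF mutations are typical of the serrated route to colorectal cancer.

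Counts per gene were scaled to counts per 1000000 (CPM) with TMM factors, a correction for differences in composition between libraries, and values are given below in the order off replicate 1, off replicate 2, on replicate 1, on replicate 2. The 4 libraries held between 59116877 and 78175143 counts and detected 20891 to 22008 genes, and 3 counts, the detection limit used here, corresponded to 0.0408 to 0.0506 CPM. Log2 CPM correlated at 0.9619 between the off libraries, 0.9794 between the on libraries and 0.9525 to 0.9549 across groups. The 10 epithelial identity genes were all detected in each library, whereas of 21 markers of stromal, endothelial, immune and neural cells 6 had no count in any of the 4 and the remaining ones summed to between 12.8 and 18.7 CPM. Among those at 0 were Dcn, Lum, Myh11, Cd3e and Adgre1, which mark fibroblasts, smooth muscle, T cells and macrophages. The only called marker among 13 tested was Cd68, a lysosomal glycoprotein best known from macrophages, at 2.73 and 3.99 CPM off and 13.2 and 11.4 CPM on (log2 fold change 1.87, SE 0.22, adjusted p = 0.00026). The share of counts from mitochondrial DNA was 6.51% and 8.84% off and 2.86% and 2.58% on, and the part of this shift in the other results was not tested beyond a fit without these genes, which called 3366 genes.

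Induction moved about 1 in 6 genes. Of 18972 genes tested, 3360 (17.7%) differed between on and off at an adjusted p under 0.05, of which 1888 (9.95%) were higher and 1472 (7.76%) lower after induction. Changes downward were the larger ones, with a median log2 fold change of -0.96 among called lower genes and 0.74 among called higher genes, while the median of all tested genes was -0.044. Of the called genes, 631 of the higher and 701 of the lower ones changed by 1 or more on the log2 scale. The on and off libraries did not overlap for 3359 of the 3360 called genes, against 57% of all tested genes. A culture with p53 R172H alone that received the same 4-HT had 27 called genes (0.142%), and a culture with BRAF V600E alone had 3776 (19.9%). The count of 3360 fell to 1699 without on replicate 1, to 2143 without off replicate 2, and to 2341 and 2399 without on replicate 2 and off replicate 1.

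**Figure D1:**
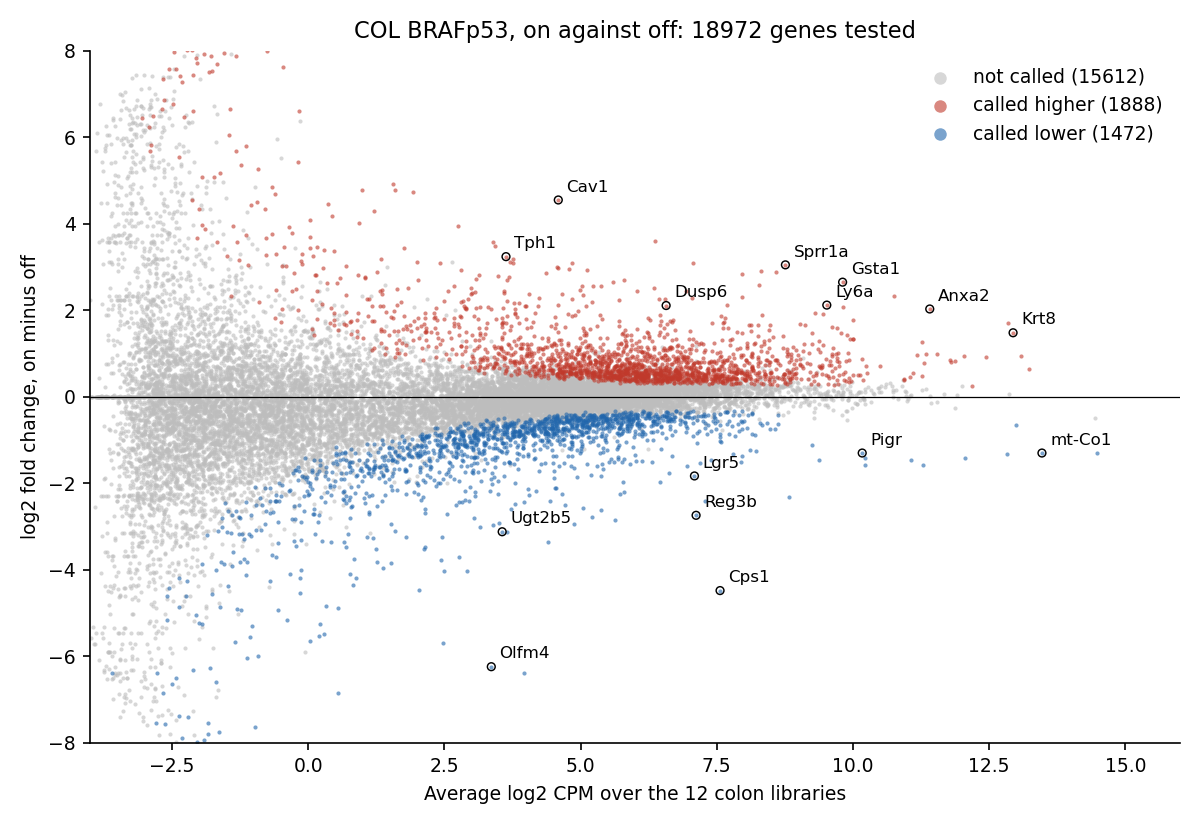
Each point is 1 of 18972 tested genes, with its average log2 CPM over the 12 colon libraries on the x axis and its log2 fold change, on minus off, in the COL BRAFp53 culture on the y axis. Called genes (adjusted p under 0.05) are red where higher (1888) and blue where lower (1472), circled genes are named in the text, and 28 genes beyond a log2 change of 8 lie outside the plot.

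Cav1, the coat protein of caveolae, had the largest increase among the genes named by size of change, and was at 1.66 and 4.07 CPM off and 79.1 and 55.6 CPM on (log2 fold change 4.55, SE 0.51, adjusted p = 0.000168), a 23.5-fold rise. Trim29, a tripartite motif protein of squamous epithelia, was at 7.46 and 5.73 CPM off and 61.7 and 50.8 CPM on (log2 fold change 3.09, SE 0.19, adjusted p = 2.39e-05). Tph1, the rate-limiting enzyme of serotonin synthesis, was at 2.79 and 2.22 CPM off and 29.5 and 17.8 CPM on (log2 fold change 3.24, SE 0.32, adjusted p = 7.29e-05). In all 3 genes both on libraries lay far above both off libraries. Other large increases were those of Prss22, a secreted serine protease (2.87 and 3.04 CPM off and 28.4 and 22.7 CPM on, log2 fold change 3.11), B3galt5, a galactosyltransferase of glycan synthesis (0.776 and 3.07 CPM off and 21.2 and 11.8 CPM on, 3.1), Dynap (1.99 and 2.16 CPM off and 26.6 and 19.8 CPM on, 3.48) and Fgf15, the bile acid-induced hormone that restrains hepatic bile acid synthesis (6.3 and 6.73 CPM off and 63.1 and 39.6 CPM on, 2.98). An exon of Fgf15 overlaps a gene on the opposite strand. Since the strand setting of the counting was not given, reads within this overlap cannot be told from those of its partner. The same holds below for Aldoa, Anxa2, Axin2, Bad, Bcl2, Bmp8b, Ccn2, Ccnd1, Ccnd2, Cftr, Cnn3, Dclk1, Ddit3, Dll1, Dusp1, Egf, Ei24, Erbb2, Ereg, Esrp1, Ezh2, Fosl1, Gata6, Gclm, Gpi1, Hk1, Jun, Junb, Krt5, Lef1, Lrig1, Me1, Neurod1, Neurog3, Nrg4, Pfkm, Prom1, Rrp9, Slc2a1, Spry1, Timp3, Vil1, Zeb1, Zeb2 and mt-Co1.

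Cps1, which fixes ammonia as the first step of the urea cycle, was among the largest decreases, at 329 and 214 CPM off and 9.74 and 14.7 CPM on (log2 fold change -4.48, SE 0.62, adjusted p = 0.000623), a 22.3-fold loss. Otc, the next enzyme of that cycle, was at 64.5 and 45.4 CPM off and 8.12 and 7.72 CPM on (log2 fold change -2.79, SE 0.26, adjusted p = 5.39e-05). Vav3, a guanine nucleotide exchange factor, was at 84.3 and 73.1 CPM off and 8.03 and 14.1 CPM on (log2 fold change -2.84, SE 0.23, adjusted p = 3.49e-05). The 2 groups did not overlap for any of them. Aadac, an esterase of drug metabolism (5 and 4.07 CPM off and 0.449 and 0.59 CPM on, log2 fold change -3.13), Pipox, a peroxisomal sarcosine oxidase (10.4 and 5.87 CPM off and 1.32 and 1.01 CPM on, -2.8), Cdo1, which starts the breakdown of cysteine (36.9 and 25.5 CPM off and 4.61 and 5.66 CPM on, -2.6) and Scn2b, a sodium channel subunit (56.4 and 57.1 CPM off and 5.39 and 9.44 CPM on, -2.94), also fell. Oat, the ornithine aminotransferase that links arginine to proline metabolism, was at 738 and 582 CPM off and 210 and 265 CPM on (log2 fold change -1.47, SE 0.18, adjusted p = 0.000244). Nr2e3, an orphan nuclear receptor, was at 3.21 and 2.48 CPM off and 0 and 0 CPM on, with no count in either on library, and was at least 62.2-fold lower when the on group was set to 3 counts.

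Of the targeted genes, Trp53 changed in level and Braf did not pass the test. Trp53 was at 177 and 155 CPM off and 276 and 362 CPM on (log2 fold change 0.94, SE 0.13, adjusted p = 0.000623), a 1.92-fold rise in which the groups did not overlap. Braf was at 40.5 and 33.2 CPM off and 50.5 and 45.2 CPM on (log2 fold change 0.38, SE 0.15, adjusted p = 0.103). The counts are summed per gene, so they do not separate V600E from wild-type Braf transcripts or R172H from wild-type Trp53 transcripts, and Braf overlaps Ndufb2 on the opposite strand.

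Feedback genes of the ERK pathway rose after induction, with exceptions. Of 14 tested members of the list, 7 were higher and 1 lower, against 9.95% and 7.76% of all genes, and the median log2 fold change was 0.69. The same shares of all genes, 17.7% in both directions together, are the background for each list count below. Dusp6, the cytoplasmic phosphatase that inactivates ERK, was at 38.1 and 37.3 CPM off and 170 and 156 CPM on (log2 fold change 2.11, SE 0.19, adjusted p = 5.74e-05). Spry4, a Sprouty protein that dampens RAS-ERK signalling, was at 3.63 and 1.54 CPM off and 15.5 and 18.7 CPM on (log2 fold change 2.72, SE 0.34, adjusted p = 0.000319). Errfi1, an inhibitor of the EGF receptor, was at 35.1 and 37.4 CPM off and 87.6 and 63.7 CPM on (log2 fold change 1.06, SE 0.2, adjusted p = 0.004). The groups were separate for each. Dusp4, a nuclear ERK phosphatase (1.23), Dusp5, another nuclear one (1.2), Spry1 (1.1) and Dusp1, a phosphatase of several MAP kinases (1.31), were the other members called higher, given here by log2 fold change. Il17rd, a membrane antagonist of FGF and ERK signalling also known as Sef, went the other way, at 3.35 and 2.29 CPM off and 0.789 and 0.876 CPM on (log2 fold change -1.76, SE 0.41, adjusted p = 0.0127). Spry2 (44.3 and 44 CPM off and 50.9 and 42.4 CPM on), Spred1 (34.1 and 37.3 CPM off and 37.3 and 34 CPM on) and Rasa2 (44 and 49.8 CPM off and 51.8 and 46.4 CPM on) did not pass the test. Calls that were lost when 1 library was left out were, without on replicate 1, those of Dusp1, Dusp5 and Il17rd, and without on replicate 2, that of Il17rd, and without off replicate 1, those of Dusp1 and Il17rd, and without off replicate 2, that of Dusp1.

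Transcription factors that respond to ERK gave a mixed picture within the AP-1 family. In this list 8 of 19 tested members were higher and 1 lower, with a median of 0.45. Fosl1, the AP-1 subunit FRA1, was at 3.71 and 5.44 CPM off and 23 and 26.6 CPM on (log2 fold change 2.44, SE 0.23, adjusted p = 6.71e-05). Fos was at 42 and 40.5 CPM off and 169 and 113 CPM on (log2 fold change 1.77, SE 0.2, adjusted p = 0.000182), and Ier3, an ERK-induced survival gene, at 87 and 92.5 CPM off and 430 and 354 CPM on (log2 fold change 2.13, SE 0.12, adjusted p = 9.99e-06). Etv5, an ETS factor downstream of FGF and RAS, was at 10 and 9.33 CPM off and 19.6 and 24.7 CPM on (log2 fold change 1.19, SE 0.19, adjusted p = 0.00139), and Etv4 rose by 1.01 on the log2 scale. These increases contrasted with Jun, the main partner of FOS in AP-1, which was at 41.2 and 53.5 CPM off and 15.2 and 17.4 CPM on (log2 fold change -1.54, SE 0.18, adjusted p = 0.000243). Myc, the growth regulator (216 and 175 CPM off and 231 and 304 CPM on, log2 fold change 0.45, SE 0.15, adjusted p = 0.0604) and Egr1 (20.2 and 22.3 CPM off and 28.4 and 27.5 CPM on, log2 fold change 0.4, SE 0.15, adjusted p = 0.0871) did not pass the test. Junb, another AP-1 subunit, rose by 1.12. When 1 library was dropped, Junb lost its call without on replicate 1, and Etv4 and Junb lost their calls without on replicate 2, and Etv4 and Junb lost their calls without off replicate 1, and Junb lost its call without off replicate 2.

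Most ligands of the EGF receptor rose. Btc, betacellulin, was at 46.8 and 45.5 CPM off and 174 and 136 CPM on (log2 fold change 1.75, SE 0.16, adjusted p = 5.39e-05). Areg, amphiregulin, was at 34.6 and 48.1 CPM off and 151 and 115 CPM on (log2 fold change 1.68, SE 0.17, adjusted p = 8.73e-05). Hbegf, heparin-binding EGF, was at 20.7 and 29.3 CPM off and 72 and 52.8 CPM on (log2 fold change 1.32, SE 0.2, adjusted p = 0.00118). Ereg (log2 fold change 1.68), Tgfa (0.99) and the receptor Egfr (0.81) were called higher as well, so that 6 of 12 tested members of the family rose and 3 fell. The lower ones were Egf itself, at 1.07 and 2.61 CPM off and 0.218 and 0.185 CPM on (log2 fold change -3.18, SE 0.56, adjusted p = 0.00251), Nrg4, a neuregulin that binds ERBB4 (-2.32), and Lrig1, a stem cell protein that lowers ERBB receptors (-0.56). Erbb2 (69.5 and 84.8 CPM off and 79.8 and 68.4 CPM on) and Erbb3 (175 and 186 CPM off and 239 and 200 CPM on) did not pass the test. Of 20 members of the kinase cascade from RAS to ERK 4 were called (20%), near the 17.7% of all genes. They were all higher, Map2k1 (0.59), Hras (0.52), Mapk3 (0.44) and Nras (0.43), with a list median of 0.11. In the cascade 1 gene was called higher without on replicate 1 or off replicate 1. Some calls were lost with a library left out: Hras, Lrig1, Map2k1, Mapk3 and Nrg4 were not called without on replicate 1, and Hras, Map2k1 and Nrg4 were not called without on replicate 2, and Ereg, Hras, Map2k1, Mapk3 and Nrg4 were not called without off replicate 1, and Lrig1 and Nrg4 were not called without off replicate 2.

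**Figure D2:**
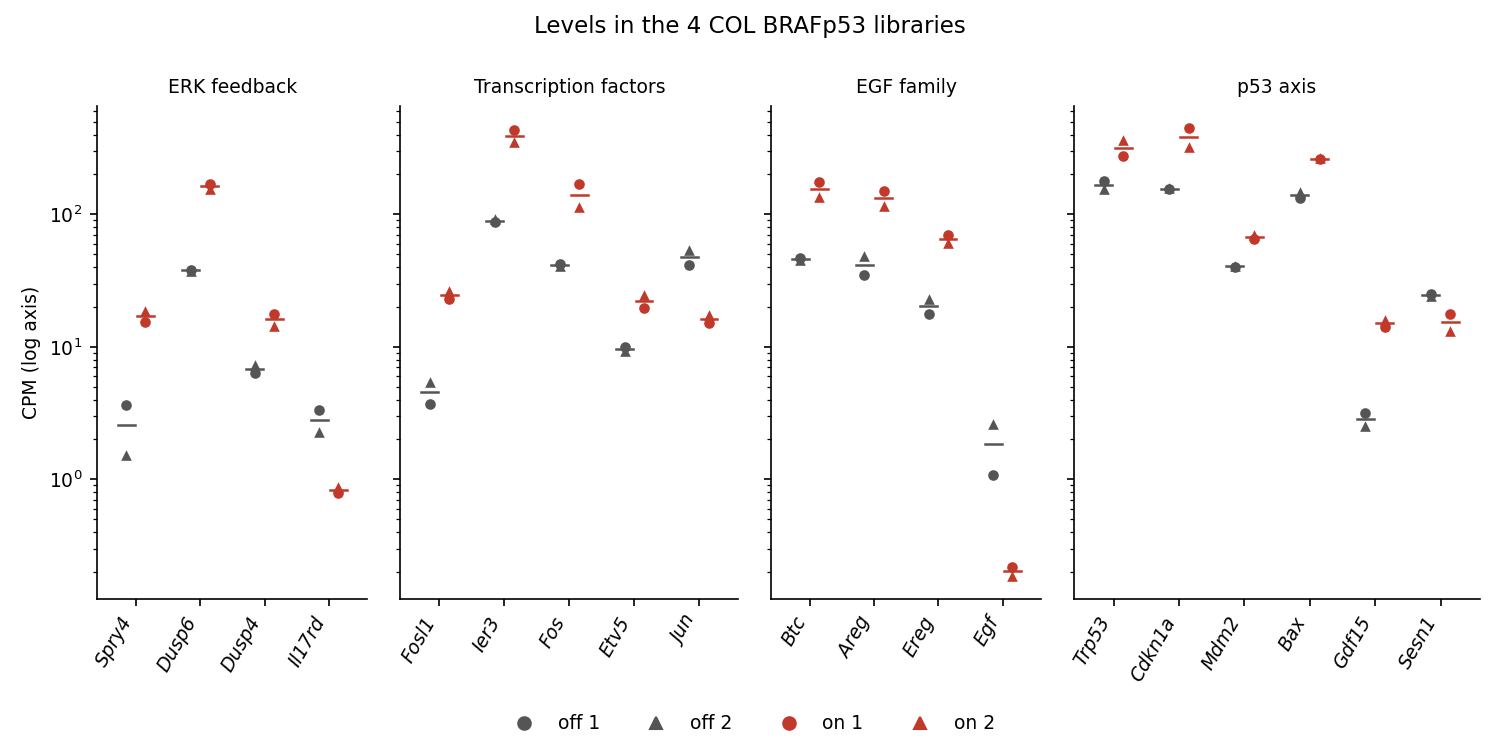
CPM on a log axis for ERK-responsive genes, EGF family members and genes of the p53 axis in the 4 COL BRAFp53 libraries, with grey for off, red for on, circles for replicate 1, triangles for replicate 2 and bars for the group mean. The groups are separate for each gene shown, with Il17rd, Jun, Egf and Sesn1 lower after induction and the other genes higher.

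Because AP-1 subunits moved in opposite directions, the promoters of tested genes were read for AP-1 letters, as a description only. RefSeq windows (build GRCm38.p6, 250 bases before to 50 after the start) were matched by symbol for 12261 tested genes. All motifs were searched on both strands. The AP-1 element, TGACTCA or TGAGTCA, stood in at least 1 window of 7.68% of called higher genes, 3.95% of called lower genes and 5.16% of all matched genes, where a gene can have several windows (15570 in all). The cyclic AMP response element TGACGTCA was present in 3.26%, 2.82% and 3.27%, the ETS element ACCGGAAGT in 2.52%, 1.6% and 2.28%, and the TATA box TATAAA, or TTTATA when read on the other strand, in 10.9%, 10.3% and 9.96% of these sets. None of these motifs contains another. The 200 bases before the start are printed for 5 called higher genes whose windows held such letters, chosen after the matches were seen, in the direction of transcription with AP-1, cyclic AMP response and TATA letters in capitals. Sprr1a codes for a protein of the cornified envelope, Anxa10 for a gastric annexin, F3 for tissue factor, Plaur for the urokinase receptor and Areg for amphiregulin.
Sprr1a, chr3:92485882-92486081, minus strand: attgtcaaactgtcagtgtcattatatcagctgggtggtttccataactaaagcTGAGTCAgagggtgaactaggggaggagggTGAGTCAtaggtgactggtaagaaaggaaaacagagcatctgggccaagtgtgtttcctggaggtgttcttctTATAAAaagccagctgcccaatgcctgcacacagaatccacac
Anxa10, chr8:62123194-62123393, minus strand: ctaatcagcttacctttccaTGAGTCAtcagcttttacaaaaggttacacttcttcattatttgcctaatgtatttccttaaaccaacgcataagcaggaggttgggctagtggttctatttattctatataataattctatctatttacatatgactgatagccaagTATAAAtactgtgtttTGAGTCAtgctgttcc
F3, chr3:121723337-121723536, plus strand: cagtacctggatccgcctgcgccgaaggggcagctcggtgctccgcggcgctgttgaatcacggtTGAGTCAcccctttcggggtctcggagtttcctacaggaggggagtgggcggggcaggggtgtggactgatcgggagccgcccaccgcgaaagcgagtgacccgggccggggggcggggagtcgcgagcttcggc
Plaur, chr7:24462283-24462482, plus strand: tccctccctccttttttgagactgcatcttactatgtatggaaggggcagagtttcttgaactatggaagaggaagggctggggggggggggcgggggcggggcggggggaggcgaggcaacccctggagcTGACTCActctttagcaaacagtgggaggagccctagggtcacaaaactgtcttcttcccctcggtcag
Areg, chr5:91139399-91139598, plus strand: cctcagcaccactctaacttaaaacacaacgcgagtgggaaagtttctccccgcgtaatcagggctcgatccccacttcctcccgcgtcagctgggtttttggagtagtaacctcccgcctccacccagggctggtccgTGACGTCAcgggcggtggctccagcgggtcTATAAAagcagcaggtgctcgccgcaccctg
Sprr1a and Anxa10 each hold 2 AP-1 matches and a TATA box, F3 and Plaur 1 AP-1 match, and Areg a cyclic AMP response element 61 bases and a TATA box 31 bases before the start. A match says only that the letters are there. Sprr1a was at 121 and 111 CPM off and 1060 and 864 CPM on (log2 fold change 3.05, SE 0.24, adjusted p = 2.8e-05), Anxa10 at 6.46 and 4.11 CPM off and 36.2 and 47.5 CPM on (log2 fold change 2.99, SE 0.3, adjusted p = 8.89e-05), F3 at 105 and 83.5 CPM off and 838 and 559 CPM on (log2 fold change 2.89, SE 0.21, adjusted p = 2.55e-05) and Plaur at 47.7 and 37.9 CPM off and 221 and 199 CPM on (log2 fold change 2.29, SE 0.2, adjusted p = 4.48e-05). In all 4 the groups were separate.

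Of 30 tested targets of p53 14 were higher and 1 lower, with a median log2 fold change of 0.51. Cdkn1a, the CDK inhibitor p21, was at 155 and 157 CPM off and 449 and 322 CPM on (log2 fold change 1.31, SE 0.17, adjusted p = 0.000453). Mdm2, the ligase that degrades p53, was at 40.4 and 41.1 CPM off and 64.8 and 70.3 CPM on (log2 fold change 0.73, SE 0.15, adjusted p = 0.0053). Bax, a pore-forming promoter of apoptosis, was at 133 and 147 CPM off and 261 and 265 CPM on (log2 fold change 0.91, SE 0.1, adjusted p = 0.000187). Gdf15, a secreted stress cytokine, was at 3.15 and 2.51 CPM off and 14.2 and 15.9 CPM on (log2 fold change 2.41, SE 0.52, adjusted p = 0.00838). Zmat3 (0.95), Tnfrsf10b, a death receptor (0.96), Plk2 (0.9), Perp, a desmosomal protein (0.8) and Ccng1 (0.56) were also called higher, by log2 fold change. Sesn1, a stress-induced inhibitor of mTORC1, was the member called lower, at 25.2 and 24.1 CPM off and 17.7 and 13.2 CPM on (log2 fold change -0.67, SE 0.16, adjusted p = 0.0134). Trp53inp1 (18 and 22 CPM off and 20.6 and 22 CPM on), Ei24 (40.9 and 54.5 CPM off and 46.5 and 49.3 CPM on) and Apaf1 (20.7 and 27.7 CPM off and 18.2 and 18.1 CPM on) did not pass the test. Whether these targets also answer to ERK was not tested, and in the culture with BRAF V600E alone 15 of the 30 were higher and 2 lower. By the same test, Sesn1 was no longer called without on replicate 2, and Sesn1 was no longer called without off replicate 1, and Gdf15 was no longer called without off replicate 2.

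Regulators of the G1 phase and of apoptosis changed one by one. Cdkn1b, the CDK inhibitor p27, was at 52.6 and 58.1 CPM off and 32.1 and 30.6 CPM on (log2 fold change -0.82, SE 0.14, adjusted p = 0.00213), opposite to Cdkn1a. Ccnd2, a D cyclin, was at 681 and 640 CPM off and 1130 and 1190 CPM on (log2 fold change 0.81, SE 0.1, adjusted p = 0.000341), while Ccnd1 was at 58.3 and 68.1 CPM off and 68.2 and 71.3 CPM on (log2 fold change 0.14, SE 0.16, adjusted p = 0.592). Of 15 CDK inhibitors, cyclins and partners 3 were higher and 1 lower. Among 22 BCL2 family members and caspases 6 were higher and 1 lower. Bcl2l1, the survival factor BCL-XL, was at 103 and 89 CPM off and 224 and 181 CPM on (log2 fold change 1.08, SE 0.2, adjusted p = 0.00306), and its relative Bcl2 at 21.6 and 22.9 CPM off and 12 and 12.2 CPM on (log2 fold change -0.88, SE 0.14, adjusted p = 0.00177).  Of the cell death genes, Bok (0.56), Bad (0.59), Pmaip1 (0.64) and Casp8 (0.46) were called higher. Calls that were lost when 1 library was left out were, without on replicate 1, those of Casp8 and Pmaip1, and without on replicate 2, that of Bok, and without off replicate 1, those of Bok and Casp8, and without off replicate 2, those of Casp8 and Pmaip1.

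Some proliferation genes fell. Of 28 DNA replication genes 7 were lower and none higher (median -0.45), and of 25 mitosis genes 8 were lower and none higher (median -0.30). The replication count depended on the tool and filter, with 14 lower by DESeq2, 13 by limma-voom, 15 with no filter and 14 with at least 10 counts per library. Pola1, the catalytic subunit of DNA polymerase alpha, was at 47.7 and 47 CPM off and 22.4 and 21.9 CPM on (log2 fold change -1.1, SE 0.13, adjusted p = 0.000204). Dtl, an adaptor that licenses destruction of replication factors, was at 70.2 and 58.8 CPM off and 24.7 and 32.3 CPM on (log2 fold change -1.18, SE 0.17, adjusted p = 0.000727). Mki67, the proliferation antigen, was at 351 and 334 CPM off and 237 and 232 CPM on (log2 fold change -0.55, SE 0.1, adjusted p = 0.00336). Top2a, the topoisomerase of dividing cells, was at 546 and 473 CPM off and 299 and 360 CPM on (log2 fold change -0.63, SE 0.11, adjusted p = 0.00235). These values were higher in on replicate 2 than in on replicate 1 for Dtl and Top2a. Lower calls were 3 replication and 5 mitosis genes without on replicate 1, and without on replicate 2, 14 and 11 were. Without off replicate 1, 4 replication genes were called lower. Cdk1 (156 and 122 CPM off and 115 and 141 CPM on), Ccnb1 (177 and 147 CPM off and 130 and 178 CPM on) and Pcna (181 and 156 CPM off and 130 and 166 CPM on) did not pass the test. Of 20 ribosome biogenesis genes 3 were called (15%), near the 17.7% of all genes, all of them higher, Srm (0.59), Nop16 (0.53) and Rrp9 (0.39), with a median of 0.16, and 0 were called without on replicate 2 or off replicate 2. When 1 library was dropped, Nop16, Rrp9 and Srm lost their calls without on replicate 2, and Rrp9 and Srm lost their calls without off replicate 1, and Nop16, Rrp9 and Srm lost their calls without off replicate 2.

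Genes of crypt base stem cells and of Wnt signalling fell. Of 30 tested 18 were lower and none higher, with a median log2 fold change of -0.84. Lgr5, the receptor that marks crypt base stem cells, was at 298 and 242 CPM off and 65.1 and 86.6 CPM on (log2 fold change -1.83, SE 0.21, adjusted p = 0.000185). Smoc2, a matricellular stem cell marker, was at 146 and 115 CPM off and 23.1 and 34 CPM on (log2 fold change -2.19, SE 0.26, adjusted p = 0.000226). Olfm4, a glycoprotein of crypt base cells, was at 31.7 and 17.1 CPM off and 0.0408 and 0.641 CPM on (log2 fold change -6.24, SE 0.89, adjusted p = 0.000774). Its on libraries differed by more than 10-fold between themselves, with on replicate 1 at the level of 3 counts, so its fold change is poorly determined. Axin2, a feedback inhibitor induced by Wnt, was at 95.3 and 89.5 CPM off and 44.6 and 54.9 CPM on (log2 fold change -0.89, SE 0.15, adjusted p = 0.00189). Rnf43 (-0.47) and Znrf3 (-0.81), ligases that remove Wnt receptors, Nkd1, a Wnt antagonist (-2.18), Lef1, a Wnt transcription factor (-1.27), and Sox9, a factor of the crypt base (-0.78), were lower as well. Prom1 (464 and 456 CPM off and 681 and 542 CPM on), Cd44 (212 and 215 CPM off and 234 and 295 CPM on) and Ephb2 (82.3 and 106 CPM off and 114 and 107 CPM on) did not pass the test, each at log2 fold changes above 0. Here and for the cell types below, fewer cells of a type and less RNA per cell cannot be told apart in bulk RNA. Lower calls numbered 7 without on replicate 1 and 15 or 16 without 1 of the other libraries. Some calls were lost with a library left out: Nkd1, Rnf43, Sox9 and Znrf3 were not called without on replicate 1, and Rnf43 was not called without off replicate 2.

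Of 15 tested Notch pathway genes 6 were lower and 2 higher. Dll1, a Notch ligand of secretory precursors, was at 7.03 and 6.6 CPM off and 1.13 and 2.46 CPM on (log2 fold change -1.93, SE 0.36, adjusted p = 0.00345), and Dtx4 at 53.1 and 55.3 CPM off and 21.9 and 25.8 CPM on (log2 fold change -1.19, SE 0.18, adjusted p = 0.000999). Jag1, another ligand, was at 32.3 and 34.2 CPM off and 56.5 and 56.9 CPM on (log2 fold change 0.77, SE 0.13, adjusted p = 0.00189). Atoh1, the factor that commits cells to the secretory lineage, was at 22.5 and 28.5 CPM off and 17.2 and 22.1 CPM on (log2 fold change -0.37, SE 0.17, adjusted p = 0.158). In the BMP and TGF-beta list 4 of 20 were higher and 1 lower (25% called), near the 17.7% of all genes. Id1 and Id3, direct BMP targets, rose by 0.85 and 0.76 on the log2 scale, and Bmp8b was at 11.9 and 14.7 CPM off and 56.4 and 40 CPM on (log2 fold change 1.86, SE 0.3, adjusted p = 0.00142). Of 17 YAP and TEAD genes 3 were higher and 1 lower (23.5% called), likewise near that share. Tead4, a DNA-binding partner of YAP, was at 3.58 and 2.4 CPM off and 13.8 and 10.9 CPM on (log2 fold change 2.05, SE 0.22, adjusted p = 0.000153), and Msln, mesothelin, at 65.3 and 60.9 CPM off and 244 and 205 CPM on (log2 fold change 1.83, SE 0.27, adjusted p = 0.000994). Lower Notch calls numbered 2 without on replicate 1 and 3 without off replicate 2. The classical YAP targets Ccn1 (11 and 13 CPM off and 12.1 and 13.1 CPM on), Ccn2 (4.28 and 6.05 CPM off and 6.54 and 7.13 CPM on) and Ankrd1 (3.1 and 2.19 CPM off and 1.61 and 1.79 CPM on) did not pass the test.

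Fetal and regenerative genes rose in 23 of 30 tested cases and none was called lower, with a median log2 fold change of 1.62. This list covers genes of fetal spheroids and of the epithelium after injury. Ly6a, the surface protein SCA-1, was at 280 and 354 CPM off and 1550 and 1210 CPM on (log2 fold change 2.12, SE 0.16, adjusted p = 2.55e-05). Anxa2, a membrane-binding annexin, was at 1200 and 1090 CPM off and 5260 and 4130 CPM on (log2 fold change 2.03, SE 0.15, adjusted p = 2.55e-05). Tm4sf4, a tetraspan membrane protein, was at 74.7 and 45.6 CPM off and 526 and 380 CPM on (log2 fold change 2.91, SE 0.25, adjusted p = 4.06e-05). Anxa1 was at 429 and 437 CPM off and 1370 and 1240 CPM on (log2 fold change 1.59, SE 0.13, adjusted p = 2.89e-05). All on libraries exceeded all off libraries for these genes. Ly6d, Ly6g and Ly6c1 rose by 3.6, 3.09 and 2.27 on the log2 scale. These genes and Ly6a belong to a family with some closely similar members, among which reads may be shared. S100a6, Il1rn, an inhibitor of interleukin 1, Tnfrsf12a and Emp1 rose by 1.77, 2.07, 1.86 and 1.68. Clu, the marker of revival stem cells, did not pass the test (log2 fold change 0.03, adjusted p = 0.97). With any 1 library left out, 22 were called higher.

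Keratins and cornified envelope genes rose. Of 25 tested genes 14 were higher and none lower (median 1). Krt19 was at 3280 and 3300 CPM off and 12100 and 9500 CPM on (log2 fold change 1.71, SE 0.17, adjusted p = 7.03e-05), and Krt8, its partner in simple epithelia, at 4150 and 3970 CPM off and 12800 and 9830 CPM on (log2 fold change 1.48, SE 0.16, adjusted p = 0.000165). Krt7, a keratin of ductal epithelia, was at 594 and 590 CPM off and 1560 and 1420 CPM on (log2 fold change 1.33, SE 0.18, adjusted p = 0.000489). Krt23 was at 41 and 31.7 CPM off and 171 and 177 CPM on (log2 fold change 2.26, SE 0.17, adjusted p = 2.55e-05). Sfn, the 14-3-3 protein stratifin, was at 152 and 160 CPM off and 497 and 415 CPM on (log2 fold change 1.55, SE 0.16, adjusted p = 9.04e-05). Of the basal squamous genes, Trp63 had no count in any library, and Krt5, at 0 and 0 CPM off and 0.422 and 0.101 CPM on, did not pass the test (adjusted p = 0.0783). Sprr2h and Sprr2a3 rose by 3.57 and 1.61, with reads possibly shared within the Sprr2 cluster.

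Genes of the stomach and of serrated lesions rose. Of 13 tested members 9 were higher and 1 lower, with a median of 1.94, and 8 of the 21 members had too few counts to be tested. Besides Anxa10, Vsig1, a junctional protein of the gastric epithelium, was at 2.53 and 3.18 CPM off and 18.2 and 23.6 CPM on (log2 fold change 2.87, SE 0.2, adjusted p = 2.55e-05). Psca, prostate stem cell antigen, was at 8.27 and 13.9 CPM off and 84.5 and 46.6 CPM on (log2 fold change 2.56, SE 0.31, adjusted p = 0.000265). Cldn18, the gastric claudin, was at 0.233 and 0.0764 CPM off and 1.01 and 0.944 CPM on (log2 fold change 2.64, SE 0.57, adjusted p = 0.00775), and Ctse, cathepsin E, at 2.56 and 0.933 CPM off and 5.18 and 4.7 CPM on (log2 fold change 1.5, SE 0.41, adjusted p = 0.0259). Gkn3, a gastrokine, fell, at 6.04 and 3.68 CPM off and 1.13 and 2.02 CPM on (log2 fold change -1.63, SE 0.46, adjusted p = 0.0313). The gastric mucin Muc5ac and the factor Sox2 had no count in any of the 4 libraries, and Tff2 was not tested, at 0.0931 and 0.0612 CPM off and 0.109 and 0.152 CPM on. Higher calls numbered between 4 and 6 with 1 library left out, fewest without on replicate 1. By the same test, Ctse and Gkn3 were no longer called without on replicate 1, and Ctse was no longer called without on replicate 2, and Gkn3 was no longer called without off replicate 1, and Cldn18 and Ctse were no longer called without off replicate 2.

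Claudins rose more often than they fell. Of 17 tested claudin and tight junction genes 8 were higher and 2 lower. Cldn4, a sealing claudin, was at 104 and 107 CPM off and 342 and 322 CPM on (log2 fold change 1.66, SE 0.19, adjusted p = 0.000204). Cldn7 was at 951 and 899 CPM off and 1570 and 1450 CPM on (log2 fold change 0.71, SE 0.1, adjusted p = 0.000626). Cldn8, another sealing claudin of the colon, fell, at 16.9 and 20.6 CPM off and 2.83 and 3.88 CPM on (log2 fold change -2.49, SE 0.21, adjusted p = 3.79e-05). Cldn2, the pore-forming claudin (481 and 443 CPM off and 451 and 639 CPM on) and Tjp1, ZO-1 (48.2 and 61.1 CPM off and 94.2 and 66.4 CPM on) did not pass the test. Without off replicate 2, 5 were called higher.

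Enterocyte genes fell more often than they rose. Of 40 tested genes 15 were lower and 5 higher (median -0.72). The same list was also lower in the culture with p53 R172H alone, with a median of -0.88 and 6 members called lower, out of 27 calls in all, and its median with BRAF V600E alone was -0.07 (12 higher and 9 lower). The 6 were Sis (-2.0 in that culture), Anpep (-1.38), Apoa1 (-1.85), Otc (-1.82), Apoc3 (-2.21) and Enpep (-1.6), given by log2 fold change. Sis, sucrase-isomaltase, was at 132 and 154 CPM off and 39 and 14.8 CPM on (log2 fold change -2.4, SE 0.32, adjusted p = 0.000507). Anpep, an aminopeptidase of the brush border, was at 342 and 233 CPM off and 115 and 84.2 CPM on (log2 fold change -1.53, SE 0.19, adjusted p = 0.000301). Apoa1, an apolipoprotein, was at 436 and 396 CPM off and 198 and 124 CPM on (log2 fold change -1.37, SE 0.21, adjusted p = 0.00112). Slc5a1, the sodium-glucose carrier SGLT1, was at 246 and 189 CPM off and 134 and 120 CPM on (log2 fold change -0.78, SE 0.12, adjusted p = 0.00119). Against these hydrolases and carriers, Fabp2, an intracellular fatty acid carrier, was at 213 and 205 CPM off and 671 and 424 CPM on (log2 fold change 1.39, SE 0.17, adjusted p = 0.000267), and Cdhr2 and Vil1, parts of the microvillus, rose by 1.12 and 0.68 on the log2 scale. The brush border genes Cdhr5 (330 and 293 CPM off and 560 and 384 CPM on) and Myo7b (242 and 243 CPM off and 343 and 306 CPM on) did not pass the test. The on libraries differed in this group, with Sis and Fabp2 lower in on replicate 2. Higher calls numbered 2 without on replicate 1 or off replicate 2. Calls that were lost when 1 library was left out were, without on replicate 1, those of Cdhr2 and Vil1, and without off replicate 2, that of Cdhr2.

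Colonocyte genes followed no single direction. Of 29 tested genes 6 were higher and 3 lower (median 0.34). The median changed sign without on replicate 1, to -0.14. Krt20, a keratin of surface cells, was at 658 and 496 CPM off and 1820 and 1090 CPM on (log2 fold change 1.34, SE 0.24, adjusted p = 0.00305), and Ceacam1, an adhesion molecule of the surface epithelium, at 1680 and 1830 CPM off and 3770 and 3150 CPM on (log2 fold change 0.98, SE 0.1, adjusted p = 0.000121). Guca2b, uroguanylin, was at 49.9 and 56.7 CPM off and 28.7 and 24.6 CPM on (log2 fold change -1.0, SE 0.13, adjusted p = 0.000526). Car1, a carbonic anhydrase, was at 3800 and 4770 CPM off and 10600 and 5810 CPM on (log2 fold change 0.94, SE 0.26, adjusted p = 0.0287). Car2 (435 and 477 CPM off and 568 and 387 CPM on), Lypd8 (1190 and 1330 CPM off and 1650 and 1110 CPM on) and Slc26a3, the chloride-bicarbonate exchanger (14.6 and 14.9 CPM off and 15 and 9.54 CPM on), did not pass the test. Without on replicate 2, the library with the lower values of Krt20 and Car1, 11 colonocyte genes were called higher. When 1 library was dropped, Car1 lost its call without on replicate 1, and Car1 lost its call without off replicate 1, and Car1 lost its call without off replicate 2.

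**Figure D3:**
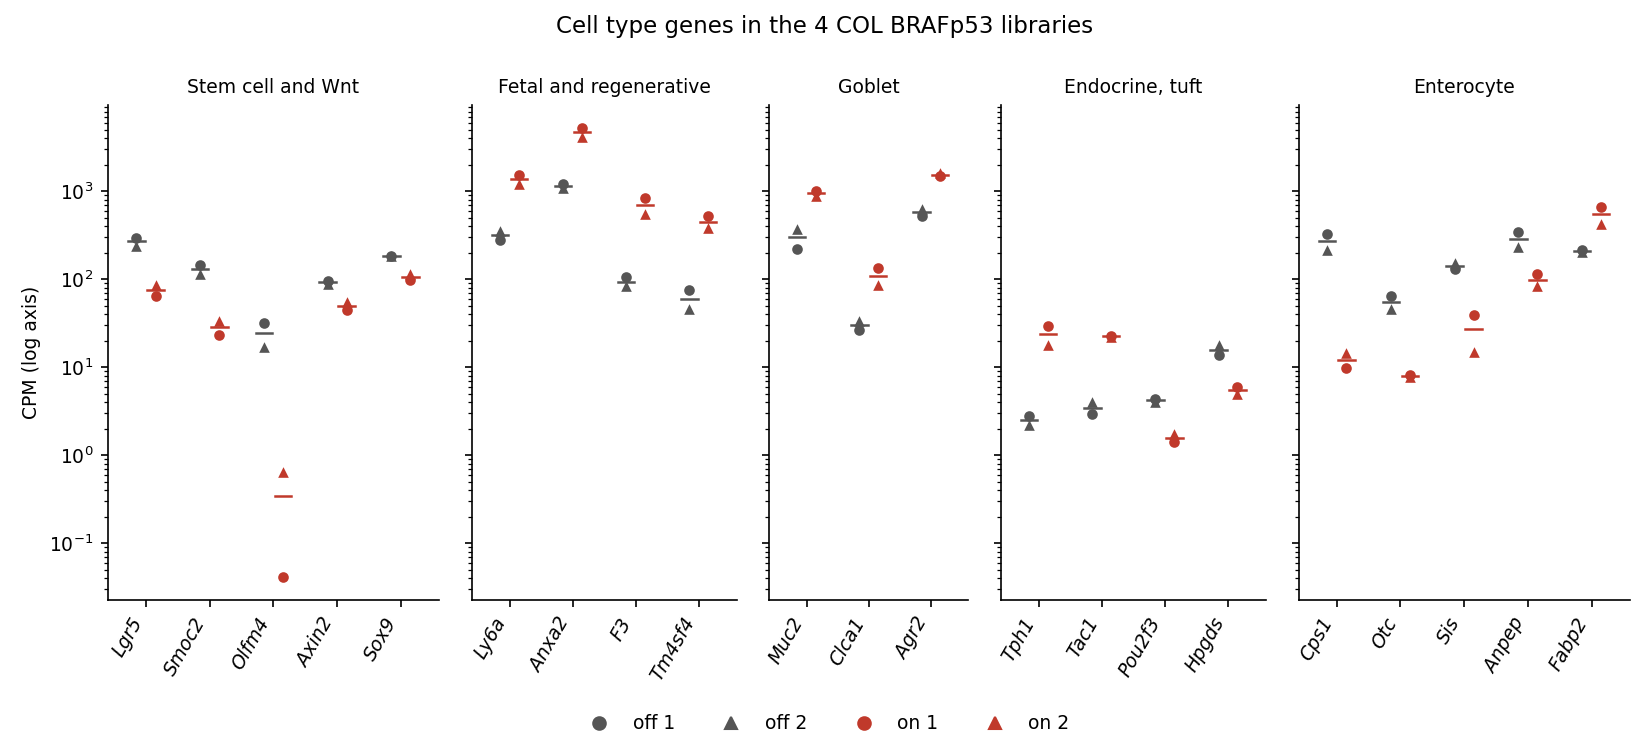
CPM on a log axis for cell type genes in the 4 COL BRAFp53 libraries, with grey for off, red for on, circles for replicate 1, triangles for replicate 2 and bars for the group mean. Stem cell genes, tuft cell genes (Pou2f3, Hpgds) and Cps1, Otc, Sis and Anpep are lower after induction, and fetal, goblet and endocrine genes and Fabp2 are higher.

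Goblet cell genes rose. Of 24 tested genes 13 were higher and 1 lower (median 0.65). Muc2, the gel-forming mucin of the colon, was at 222 and 376 CPM off and 1020 and 887 CPM on (log2 fold change 1.67, SE 0.2, adjusted p = 0.000288). Clca1, a secreted mucus-processing protein, was at 26.2 and 33.9 CPM off and 134 and 86.6 CPM on (log2 fold change 1.88, SE 0.23, adjusted p = 0.000272). Agr2, the disulfide isomerase needed for mucin folding, was at 520 and 631 CPM off and 1480 and 1620 CPM on (log2 fold change 1.43, SE 0.18, adjusted p = 0.000375). Spdef, the transcription factor of goblet maturation, was at 19.3 and 26.7 CPM off and 48.8 and 54.4 CPM on (log2 fold change 1.16, SE 0.18, adjusted p = 0.00124). Groups were separate for each of the 4. Tff3, a trefoil peptide (363 and 407 CPM off and 460 and 415 CPM on), and Fcgbp, an IgG-binding mucus protein (292 and 271 CPM off and 422 and 316 CPM on), did not pass the test. Between 9 and 12 were called higher when 1 library was left out, the lowest count being that without off replicate 1.

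Of 17 tested deep crypt secretory and Paneth cell genes 7 were lower and 2 higher (median -1.02). Kit, the receptor of deep crypt secretory cells, was at 56 and 42 CPM off and 16.3 and 15 CPM on (log2 fold change -1.65, SE 0.2, adjusted p = 0.00027). Reg3b, an antimicrobial lectin with close paralogs, was at 311 and 388 CPM off and 55.6 and 48.9 CPM on (log2 fold change -2.74, SE 0.64, adjusted p = 0.0122). Spink1, a trypsin inhibitor, was at 11.8 and 11.3 CPM off and 2.15 and 2.53 CPM on (log2 fold change -2.3, SE 0.42, adjusted p = 0.00333). Reg4, the marker of the deep crypt secretory cell, was at 49.2 and 51.3 CPM off and 66.6 and 72.7 CPM on (log2 fold change 0.47, SE 0.16, adjusted p = 0.06), and Lyz1, lysozyme, at 939 and 1380 CPM off and 782 and 933 CPM on (log2 fold change -0.43, SE 0.18, adjusted p = 0.122). Nupr1, a stress-induced chromatin protein, was at 134 and 176 CPM off and 470 and 419 CPM on (log2 fold change 1.52, SE 0.13, adjusted p = 4.06e-05). Lower calls numbered 3 without on replicate 1 and 4 without on replicate 2. Some calls were lost with a library left out: Reg3b was not called without on replicate 1, and Reg3b was not called without on replicate 2.

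Of 24 tested enteroendocrine genes 7 were higher and none lower (median 0.47). Tac1, the precursor of substance P, was at 2.96 and 3.99 CPM off and 22.7 and 22.1 CPM on (log2 fold change 2.69, SE 0.24, adjusted p = 5.36e-05). Sct, secretin, was at 8.69 and 8.76 CPM off and 61.3 and 29 CPM on (log2 fold change 2.37, SE 0.28, adjusted p = 0.000243). Chgb, a granin of secretory granules, was at 146 and 121 CPM off and 346 and 290 CPM on (log2 fold change 1.25, SE 0.19, adjusted p = 0.000987). Tac1 and Tph1, given above, are markers of serotonin-producing enterochromaffin cells. The hormone genes Gcg, proglucagon, and Nts, neurotensin (25.8 and 16.3 CPM off and 58.5 and 25.4 CPM on), did not pass the test. Neurog3, the factor that starts the lineage, was at 12.4 and 7.48 CPM off and 8.25 and 10.3 CPM on (log2 fold change -0.1, SE 0.29, adjusted p = 0.854), and Neurod1 at 11 and 8.26 CPM off and 10 and 7 CPM on (log2 fold change -0.18, SE 0.23, adjusted p = 0.65). Chga, the general granin, was at 44.7 and 43.5 CPM off and 71.7 and 58.1 CPM on (log2 fold change 0.56, SE 0.24, adjusted p = 0.132). Higher calls numbered 4 without on replicate 1.

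Of 18 tested tuft cell genes 6 were lower and none higher (median -0.68). Hpgds, a prostaglandin synthase of tuft cells, was at 13.9 and 17.8 CPM off and 6 and 4.92 CPM on (log2 fold change -1.54, SE 0.23, adjusted p = 0.00111). Rgs13 was at 19.5 and 15.3 CPM off and 7.88 and 6.79 CPM on (log2 fold change -1.25, SE 0.22, adjusted p = 0.00254). Pou2f3, the factor that specifies the lineage, was at 4.41 and 4.07 CPM off and 1.43 and 1.74 CPM on (log2 fold change -1.42, SE 0.3, adjusted p = 0.00689). Dclk1, the usual tuft cell marker, was at 22.5 and 16.1 CPM off and 13.8 and 10.3 CPM on (log2 fold change -0.68, SE 0.23, adjusted p = 0.0586). Lower calls numbered 2 without on replicate 1 and 3 without on replicate 2. By the same test, Pou2f3 was no longer called without on replicate 1.

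Ion and water transport genes were lower in 7 of 19 tested cases and higher in 3 (median 0.06). Aqp1, a water channel, was at 58.4 and 72.5 CPM off and 14.7 and 22.3 CPM on (log2 fold change -1.82, SE 0.21, adjusted p = 0.000194). Cftr, the chloride channel, was at 127 and 96.4 CPM off and 65.1 and 73.5 CPM on (log2 fold change -0.69, SE 0.14, adjusted p = 0.00628), and Slc12a2, the basolateral chloride importer, at 554 and 536 CPM off and 292 and 359 CPM on (log2 fold change -0.74, SE 0.12, adjusted p = 0.00148). S100g, the calcium-binding protein calbindin D9k, was at 13.2 and 14.5 CPM off and 60 and 43.9 CPM on (log2 fold change 1.9, SE 0.19, adjusted p = 7.85e-05). Of 34 genes of xenobiotic metabolism 8 were lower and 4 higher (median -0.15). Gsta1, a glutathione transferase with close paralogs, was at 220 and 214 CPM off and 1660 and 1060 CPM on (log2 fold change 2.65, SE 0.2, adjusted p = 2.58e-05). Gsta4, which detoxifies lipid aldehydes, was at 287 and 248 CPM off and 1200 and 816 CPM on (log2 fold change 1.91, SE 0.16, adjusted p = 4.06e-05). Ces1g, a carboxylesterase, was at 8.63 and 9.56 CPM off and 1.51 and 0.876 CPM on (log2 fold change -2.91, SE 0.29, adjusted p = 8.45e-05), and Ugt2b5, a glucuronosyltransferase, at 9.11 and 9.3 CPM off and 1.24 and 0.86 CPM on (log2 fold change -3.12, SE 0.26, adjusted p = 3.61e-05). Both of the latter belong to clusters of similar genes. Without on replicate 2, 9 xenobiotic genes were called higher, and without off replicate 1, 4 transport genes lower. Calls that were lost when 1 library was left out were, without on replicate 1, that of Cftr, and without off replicate 1, that of Cftr.

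On the list of intestinal identity factors 2 of 22 tested members were higher and 3 lower (median -0.01), or 22.7% called against 17.7% of all genes. The lower ones include Nr2e3, which the paper describes as a possible suppressor of breast and liver tumours. Its loss is therefore not read as one of intestinal identity. Gata6, an endodermal factor, was at 60.4 and 57.7 CPM off and 35.8 and 31.2 CPM on (log2 fold change -0.82, SE 0.14, adjusted p = 0.00219). Vdr, the vitamin D receptor, was at 275 and 238 CPM off and 170 and 158 CPM on (log2 fold change -0.64, SE 0.11, adjusted p = 0.00184). Creb3l3, a membrane-bound factor of lipid metabolism, was at 7.32 and 3.5 CPM off and 27.9 and 18.2 CPM on (log2 fold change 2.09, SE 0.43, adjusted p = 0.00626). Cdx2, the caudal factor of hindgut identity, was at 111 and 134 CPM off and 128 and 109 CPM on (log2 fold change -0.04, SE 0.13, adjusted p = 0.851), and Hnf4a at 540 and 511 CPM off and 648 and 566 CPM on (log2 fold change 0.21, SE 0.1, adjusted p = 0.198). Of 15 tested genes of regional position 1 was called, Car1, with a median of -0.04. Of the 10 epithelial identity genes 7 were higher and none lower. Epcam was at 607 and 640 CPM off and 628 and 538 CPM on (log2 fold change -0.1, SE 0.1, adjusted p = 0.571). Of the identity genes 4 were called higher without on replicate 1, and without off replicate 2 no transcription factor was. When 1 library was dropped, Car1 lost its call without on replicate 1, and Car1 lost its call without off replicate 1, and Car1 and Creb3l3 lost their calls without off replicate 2.

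Glycolytic genes rose. Of 18 tested genes 15 were higher (83.3%) and none lower, with a median of 0.82. Hk1, the hexokinase that traps glucose in the cell, was at 59.4 and 71.8 CPM off and 243 and 182 CPM on (log2 fold change 1.7, SE 0.22, adjusted p = 0.000485). Slc2a1, the glucose carrier GLUT1, was at 100 and 117 CPM off and 361 and 252 CPM on (log2 fold change 1.5, SE 0.21, adjusted p = 0.000604). Pkm, pyruvate kinase, was at 2900 and 2640 CPM off and 5530 and 5180 CPM on (log2 fold change 0.95, SE 0.11, adjusted p = 0.000208). Ldha, which turns pyruvate to lactate, was at 2750 and 2340 CPM off and 4810 and 4220 CPM on (log2 fold change 0.83, SE 0.12, adjusted p = 0.00084). Eno1, enolase, was at 2080 and 1860 CPM off and 4030 and 3720 CPM on (log2 fold change 0.98, SE 0.11, adjusted p = 0.000139). The groups were separate for these 5, although reads of these genes may be shared with processed copies elsewhere in the genome. Gpi1 (719 and 708 CPM off and 982 and 836 CPM on), Pfkm (19.8 and 15.1 CPM off and 16.2 and 15.2 CPM on) and Pdk1, the kinase that blocks entry into the mitochondrial cycle (53.7 and 50.8 CPM off and 53.1 and 49.4 CPM on), did not pass the test. Between 11 and 15 were called when 1 library was left out, the fewest without off replicate 2.

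Transcripts of the mitochondrial genome fell. The group of mitochondrial protein genes was added after its values had been seen. Of 11 tested members 10 were lower (median -1.42). mt-Co1, a subunit of cytochrome oxidase, was at 11000 and 16400 CPM off and 5740 and 5400 CPM on (log2 fold change -1.3, SE 0.21, adjusted p = 0.00166). mt-Nd2, a subunit of complex I, was at 1390 and 2070 CPM off and 594 and 565 CPM on (log2 fold change -1.57, SE 0.23, adjusted p = 0.000784), and mt-Cytb, of complex III, at 8460 and 12200 CPM off and 4250 and 4000 CPM on (log2 fold change -1.33, SE 0.18, adjusted p = 0.000536). mt-Rnr2, the large ribosomal RNA, was at 26600 and 35000 CPM off and 14100 and 10900 CPM on (log2 fold change -1.31, SE 0.23, adjusted p = 0.00246). On libraries were alike, and off replicate 2 lay above off replicate 1. In the 8 other colonic libraries the share of counts from mitochondrial DNA was 3.11% to 8.36%, so that both on libraries of the double mutant lay below all others. Of 29 nuclear genes of the respiratory chain and TCA cycle 7 were higher and none lower (median 0.16), or 24.1% called against 17.7% of all genes. Mdh2, malate dehydrogenase, was at 666 and 599 CPM off and 856 and 929 CPM on (log2 fold change 0.5, SE 0.09, adjusted p = 0.00345). Tfam, which maintains mitochondrial DNA, was at 90.3 and 76.1 CPM off and 61.3 and 76.4 CPM on (log2 fold change -0.27, SE 0.14, adjusted p = 0.22), and Ppargc1a, a driver of mitochondrial biogenesis, at 19.1 and 12.8 CPM off and 13.2 and 13.5 CPM on (log2 fold change -0.26, SE 0.21, adjusted p = 0.441). With 1 library left out, between 1 and 3 of the 29 nuclear genes were called higher.

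Of 22 genes of fatty acid oxidation and ketogenesis 4 were higher and 2 lower (median 0.23), or 27.3% called against 17.7% of all genes. Pparg, the lipid-sensing nuclear receptor, was at 37.4 and 44.5 CPM off and 111 and 76.8 CPM on (log2 fold change 1.2, SE 0.16, adjusted p = 0.000551), and its target Angptl4 at 5.4 and 3.47 CPM off and 24.3 and 15.4 CPM on (log2 fold change 2.16, SE 0.31, adjusted p = 0.000764). Cpt1a, the gate of mitochondrial fatty acid import, was at 59.6 and 66.3 CPM off and 119 and 95.8 CPM on (log2 fold change 0.77, SE 0.15, adjusted p = 0.00404). Ppara, the relative that drives ketogenesis, was at 3.71 and 2.37 CPM off and 1.13 and 0.523 CPM on (log2 fold change -1.86, SE 0.41, adjusted p = 0.00849). In cholesterol and fatty acid synthesis 9 of 28 were higher and none lower (median 0.28). Me1, malic enzyme, was at 39 and 36.6 CPM off and 96 and 70.5 CPM on (log2 fold change 1.14, SE 0.18, adjusted p = 0.00126), and Scd1, a fatty acid desaturase, at 93.5 and 98 CPM off and 148 and 155 CPM on (log2 fold change 0.66, SE 0.13, adjusted p = 0.00532). Fasn (323 and 338 CPM off and 395 and 374 CPM on) and Hmgcs1 (835 and 710 CPM off and 922 and 754 CPM on) did not pass the test. Between 2 and 6 synthesis genes were called higher with 1 library left out, and without on replicate 2, 7 oxidation genes. Some calls were lost with a library left out: Ppara was not called without on replicate 2, and Ppara was not called without off replicate 1.

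Stress programmes rose in part. Of 27 genes of the ER stress and integrated stress response 11 were higher and none lower (median 0.41). Slc7a11, the cystine importer, was at 17.4 and 24.3 CPM off and 65 and 60.1 CPM on (log2 fold change 1.58, SE 0.17, adjusted p = 0.000139). Chac1, which degrades glutathione, was at 4.84 and 5.21 CPM off and 18.6 and 13.6 CPM on (log2 fold change 1.68, SE 0.24, adjusted p = 0.000726). Asns, asparagine synthetase, was at 149 and 142 CPM off and 218 and 239 CPM on (log2 fold change 0.65, SE 0.1, adjusted p = 0.00117). Hspa5, the ER chaperone BiP, was at 712 and 634 CPM off and 762 and 897 CPM on (log2 fold change 0.3, SE 0.12, adjusted p = 0.096), and Ddit3, CHOP, at 15 and 18.9 CPM off and 22.8 and 15.3 CPM on (log2 fold change 0.17, SE 0.24, adjusted p = 0.685). Of 20 NRF2 targets 10 were higher and 1 lower (median 0.37). Hmox1, heme oxygenase, was at 8.05 and 10.7 CPM off and 37.5 and 29.5 CPM on (log2 fold change 1.84, SE 0.19, adjusted p = 0.000117), and Osgin1 at 11.9 and 12.4 CPM off and 26.8 and 24.3 CPM on (log2 fold change 1.07, SE 0.13, adjusted p = 0.000275). Gclm, a subunit of glutathione synthesis, was the lower one at 61.7 and 86.3 CPM off and 48.1 and 50.2 CPM on (log2 fold change -0.59, SE 0.18, adjusted p = 0.0456). Stress response calls numbered 5 without on replicate 2 and 6 without off replicate 1, and higher NRF2 calls 6 without off replicate 1. By the same test, Gclm was no longer called without on replicate 1, and Gclm was no longer called without on replicate 2, and Gclm was no longer called without off replicate 2.

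Of 31 tested interferon and antigen presentation genes 4 were higher and 3 lower (median 0.43), shares near those of all genes, 9.95% and 7.76%. Cd274, the checkpoint ligand PD-L1, was at 0.853 and 0.627 CPM off and 4.45 and 3.86 CPM on (log2 fold change 2.49, SE 0.34, adjusted p = 0.000566). B2m, the light chain of MHC class I, was at 293 and 266 CPM off and 180 and 171 CPM on (log2 fold change -0.67, SE 0.13, adjusted p = 0.00536), opposite to the heavy chain H2-K1 at 411 and 436 CPM off and 731 and 618 CPM on (log2 fold change 0.67, SE 0.14, adjusted p = 0.00674), which belongs to a family of similar genes. Of 29 chemokine, cytokine and defence genes 11 were higher and 4 lower (median 0.73). Lif, a cytokine of the interleukin 6 family, was at 6.78 and 3.62 CPM off and 24.7 and 21.7 CPM on (log2 fold change 2.16, SE 0.29, adjusted p = 0.000536), and Tnf at 4.89 and 5.11 CPM off and 12.1 and 12.3 CPM on (log2 fold change 1.29, SE 0.21, adjusted p = 0.0015). Pigr, the receptor that carries IgA into the lumen, was at 1450 and 1470 CPM off and 563 and 620 CPM on (log2 fold change -1.3, SE 0.11, adjusted p = 3.2e-05). Ccl28, a chemokine that attracts IgA-producing cells, was at 33.8 and 28.8 CPM off and 7.06 and 10.4 CPM on (log2 fold change -1.85, SE 0.21, adjusted p = 0.000195). Lcn2 was at 0.279 and 0.229 CPM off and 0.0952 and 0.421 CPM on and Isg15 at 0.822 and 2.6 CPM off and 3.52 and 2.78 CPM on, and neither passed the test. Without on replicate 1, 2 interferon and 6 cytokine genes were called higher.

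Matrix and adhesion genes rose more often than they fell. Of 18 basement membrane genes 6 were higher and 2 lower (median 0.02). Col18a1, the source of endostatin, was at 6.28 and 6.12 CPM off and 51.4 and 45.2 CPM on (log2 fold change 2.96, SE 0.27, adjusted p = 5.74e-05). Hspg2, perlecan, was at 3.57 and 3.29 CPM off and 1.31 and 0.843 CPM on (log2 fold change -1.67, SE 0.31, adjusted p = 0.00349). Of 13 integrins 4 were higher and none lower (median 0.63). Itga2, a collagen receptor, was at 57.1 and 48.6 CPM off and 116 and 110 CPM on (log2 fold change 1.1, SE 0.17, adjusted p = 0.00101), and Itga3, a laminin receptor, at 73 and 80.2 CPM off and 148 and 132 CPM on (log2 fold change 0.87, SE 0.14, adjusted p = 0.00135). In the plasminogen system and matrix proteases 10 of 20 were higher and 1 lower (median 0.63). Besides Plaur, Plat, tissue plasminogen activator, was at 19.6 and 11.9 CPM off and 86.7 and 56.6 CPM on (log2 fold change 2.18, SE 0.35, adjusted p = 0.00154). Serpinb5, maspin, was at 59.2 and 58.4 CPM off and 161 and 146 CPM on (log2 fold change 1.39, SE 0.13, adjusted p = 7.16e-05). Timp3, an inhibitor of metalloproteinases, was the lower member at 14.1 and 17.9 CPM off and 2.37 and 4.57 CPM on (log2 fold change -2.21, SE 0.47, adjusted p = 0.00736). Without on replicate 1 or off replicate 2, 3 basement membrane genes were called higher. Calls that were lost when 1 library was left out were, without on replicate 1, that of Timp3.

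Of 15 tested genes on the epithelial-mesenchymal list 9 were higher and none lower (median 0.88), but these included epithelial genes such as Cdh1, E-cadherin, at 1040 and 926 CPM off and 1340 and 1240 CPM on (log2 fold change 0.39, SE 0.1, adjusted p = 0.0209), and Esrp1, an epithelial splicing factor (0.43). Cav2 and Cavin1, partners of Cav1 in caveolae, were at 16.8 and 18.1 CPM off and 115 and 113 CPM on (log2 fold change 2.71, SE 0.2, adjusted p = 2.55e-05) and 28.8 and 32.6 CPM off and 88.1 and 90.9 CPM on (log2 fold change 1.54, SE 0.15, adjusted p = 8.39e-05). Vim, vimentin, was at 2.51 and 3.1 CPM off and 6.59 and 6.12 CPM on (log2 fold change 1.18, SE 0.31, adjusted p = 0.0229). The mesenchymal factors Snai2, Twist1 and Twist2 had no count, Zeb1 was at 0 and 0.122 CPM off and 0.136 and 0 CPM on, Snai1 at 0 and 0 CPM off and 0.0272 and 0.354 CPM on and Zeb2 at 0 and 0 CPM off and 0.272 and 0.0169 CPM on, and none of these passed the filter and the test. Of that list 5 were called higher without on replicate 1. Of 30 invasion and migration genes 16 were higher and 2 lower (median 0.54). Tpm2, a tropomyosin, was at 1.24 and 0.948 CPM off and 11.2 and 7.47 CPM on (log2 fold change 3.09, SE 0.37, adjusted p = 0.000248). Epha2, a receptor of ephrins, was at 51.7 and 45 CPM off and 175 and 133 CPM on (log2 fold change 1.67, SE 0.23, adjusted p = 0.000635). Cnn3, a calponin, fell, at 89.9 and 70.9 CPM off and 24.8 and 35.1 CPM on (log2 fold change -1.43, SE 0.2, adjusted p = 0.000624). When 1 library was dropped, Cdh1, Esrp1 and Vim lost their calls without on replicate 1, and Vim lost its call without on replicate 2, and Esrp1 and Vim lost their calls without off replicate 1, and Cdh1 and Vim lost their calls without off replicate 2.

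Of 17 tested genes of DNA methylation, Polycomb and mismatch repair 5 were lower and 1 higher (median -0.27). Tet1, which oxidises methylcytosine, was at 1.83 and 4.14 CPM off and 0.0136 and 0.118 CPM on (adjusted p = 0.00273), and no fold is given since on replicate 1 held 1 count, under the detection limit. Dnmt1, the maintenance methyltransferase, was at 229 and 198 CPM off and 127 and 161 CPM on (log2 fold change -0.57, SE 0.14, adjusted p = 0.0176), and Ezh2, the Polycomb methyltransferase, at 50.4 and 48.8 CPM off and 32.1 and 35.9 CPM on (log2 fold change -0.54, SE 0.16, adjusted p = 0.0323). Without on replicate 1 or off replicate 1, 2 were called lower. Some calls were lost with a library left out: Dnmt1 and Ezh2 were not called without on replicate 1, and Ezh2 was not called without on replicate 2, and Dnmt1 and Ezh2 were not called without off replicate 1, and Ezh2 was not called without off replicate 2.

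**Figure D4:**
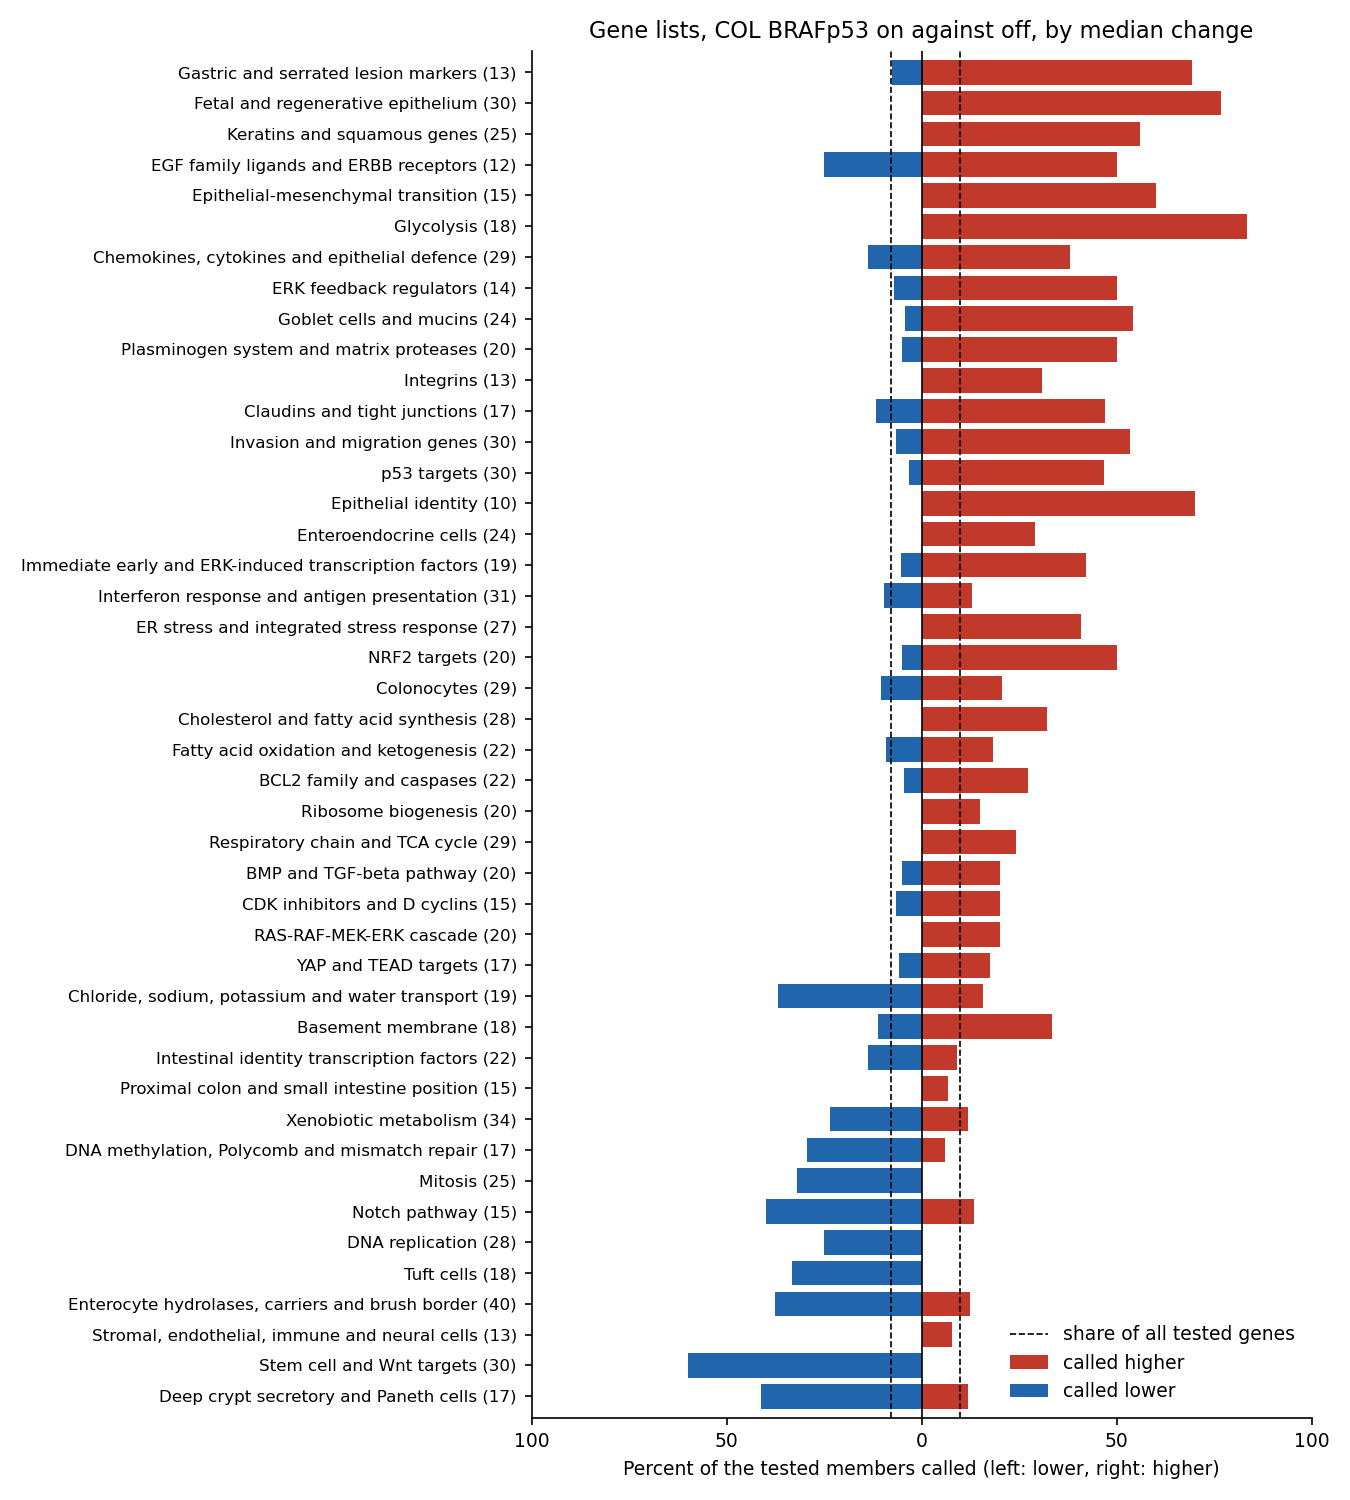
Percent of the tested members of 44 gene lists that were called higher (red, right) or lower (blue, left) in the COL BRAFp53 culture, ordered by the list's median log2 fold change, with the number of tested members in brackets. Dashed lines mark the share of all tested genes, 9.95% higher and 7.76% lower. The lists were chosen with earlier results of these data known, so their shares are descriptions.

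The response was next set beside that of the culture with BRAF V600E alone, to ask where the double mutant differed. The test of the difference between both responses called 172 genes (0.907%), of which 101 (0.532%) were higher and 71 (0.374%) lower in the double mutant, and 105 of them were also called within it. By comparison, 1664 genes were called in the double mutant and not with BRAF V600E alone, but only 54 of these passed the test of the difference. The 2 cultures come from different donor mice, so p53 R172H and the donor cannot be told apart, and several of the genes below started from unlike off levels. The count of 172 depended on the processing, with 1364 by DESeq2, 1312 with no filter, 391 with at least 10 counts per library and 17 with a replicate block. It was 7 without off replicate 2 and 10 without on replicate 2, against 159 without on replicate 1 and 279 without off replicate 1.

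The differing genes named from here on outnumber the 17 called with a replicate block, so they cannot all keep their call there. Trp53 was among the 172, with 177 and 155 CPM off and 276 and 362 CPM on in the double mutant and 289 and 285 CPM off and 202 and 223 CPM on with BRAF V600E alone (difference 1.37, SE 0.18, adjusted p = 0.0326). Jun was another: it fell by 1.54 on the log2 scale in the double mutant and was at 21.2 and 24.6 CPM off and 20.2 and 22 CPM on with BRAF V600E alone (difference -1.42, SE 0.26, adjusted p = 0.0406). Of 18 tested glycolytic genes 3 were called in the difference, all higher, Pkm, Aldoa and Eno1. Pkm rose by 0.95 here and was at 4070 and 3900 CPM off and 4350 and 4100 CPM on in the BRAF culture (difference 0.86, SE 0.15, adjusted p = 0.0406). Aldoa, aldolase, rose by 0.86 and was at 4020 and 3840 CPM off and 3840 and 3840 CPM on there (difference 0.89, SE 0.17, adjusted p = 0.0466). Eno1 rose by 0.98 and was at 3000 and 2920 CPM off and 3520 and 3450 CPM on there (difference 0.74, SE 0.15, adjusted p = 0.0477). With BRAF V600E alone the log2 fold changes of these 3 genes were 0.08, -0.03 and 0.24, and none passed the test. mt-Co1 was at 11400 and 15600 CPM off and 14400 and 20100 CPM on in the BRAF culture (difference -1.66, SE 0.3, adjusted p = 0.0406), and mt-Nd2 at 1330 and 1810 CPM off and 1560 and 1880 CPM on (difference -1.71, SE 0.32, adjusted p = 0.0436). Of the 11 tested mitochondrial protein genes 7 were called lower in the difference. Nuclear genes of the respiratory chain and TCA cycle went the other way, with 5 of 29 called higher in the difference and none lower. They were Ndufa9, Ndufb8, Sdhb, Uqcrc1 and Mdh2, and in the BRAF culture 14 of the 29 were called lower and none higher (median -0.33).

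Vsig1 rose in both cultures, and by more in the double mutant on the log2 scale only. It was at 25.5 and 32.2 CPM off and 65.9 and 57 CPM on with BRAF V600E alone (difference 1.78, SE 0.26, adjusted p = 0.0354). Its on levels in the double mutant, given above, lay below both of these off levels. Chac1 was at 16.2 and 14.1 CPM off and 14.4 and 17.3 CPM on in the BRAF culture (difference 1.61, SE 0.33, adjusted p = 0.0489). Its off levels were lower in the double mutant, and its on levels were in the same range. Emp1 and Cdh13, T-cadherin, rose less in the double mutant (difference -1.31, SE 0.27, adjusted p = 0.0492 and difference -1.95, SE 0.21, adjusted p = 0.0199). A pair of nutrient carriers rose with BRAF V600E alone and did not pass the test here, and a mucin rose less here. Slc6a19, an amino acid carrier, was at 22.6 and 13.8 CPM off and 28.8 and 19.8 CPM on in the double mutant and 2.98 and 1.38 CPM off and 26.2 and 24 CPM on in the BRAF culture (difference -3.1, SE 0.47, adjusted p = 0.0354). Slc15a1, the peptide carrier, was at 15.7 and 9.08 CPM off and 12 and 8.43 CPM on and 2.72 and 4.74 CPM off and 19.5 and 19.9 CPM on (difference -2.68, SE 0.44, adjusted p = 0.0404). Muc3, a membrane mucin, was at 193 and 215 CPM off and 473 and 296 CPM on and 61.8 and 71.4 CPM off and 577 and 559 CPM on (difference -2.18, SE 0.3, adjusted p = 0.0326). In each of these 3 the off level was higher in the double mutant than in the BRAF culture.

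**Figure D5:**
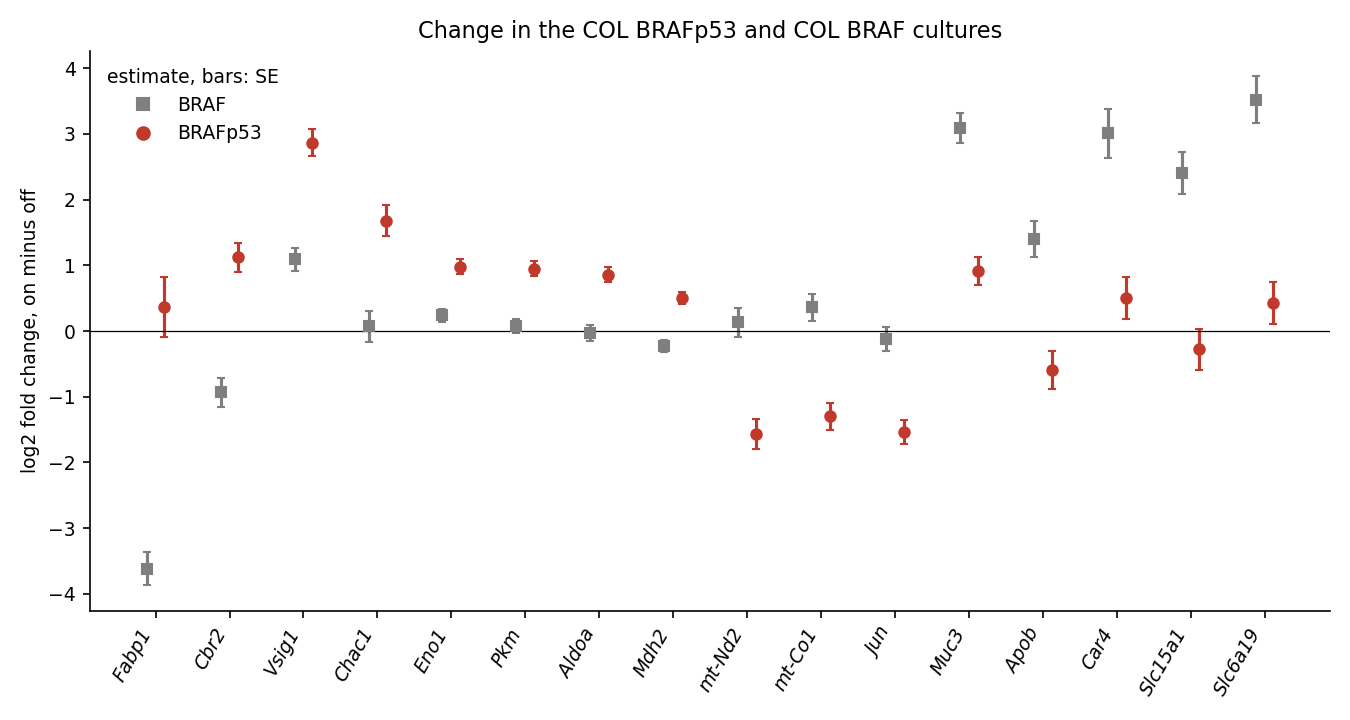
Log2 fold change, on minus off, with its standard error from the edgeR fit as bars, for 16 genes in the COL BRAF culture (grey squares) and the COL BRAFp53 culture (red circles). The genes are 16 of the 172 whose responses differed at an adjusted p under 0.05. They were chosen from the largest differences and from glycolytic and mitochondrial genes, with Jun added. mt-Nd2, mt-Co1 and Jun lie below -1 in the red series and between -0.12 and 0.36 in the grey one.

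Against the culture with p53 R172H alone 740 genes (3.9%) differed in response, against 1701 by DESeq2 and 1855 with no filter. Cav1 (difference 5.66, SE 0.66, adjusted p = 0.00448), Ly6d (difference 2.89, SE 0.41, adjusted p = 0.00693) and Tph1 (difference 2.74, SE 0.42, adjusted p = 0.0087) differed upward, and Smoc2 (difference -2.24, SE 0.35, adjusted p = 0.00996) and Scn2b (difference -3.1, SE 0.44, adjusted p = 0.00693) downward. Adm, adrenomedullin, also differed (difference 2.77, SE 0.5, adjusted p = 0.0154), as did Fgfr2, a receptor of fibroblast growth factors (difference -2.25, SE 0.3, adjusted p = 0.00664). This count was 214 without on replicate 1, 307 without off replicate 2, 484 without off replicate 1 and 782 without on replicate 2.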

How the data were processed

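RNA-Seq reads were paired-end from a HiSeq4000. The authors trimmed them with Trimmomatic 0.36 and aligned them with STAR 2.5.2b, to mm10 per the methods, and deposited raw counts per gene, which were the unit used here. The annotation release and the strand setting of the counting were not given in the sources used here. Of 45706 identifiers in the colon table, 45143 were matched to GENCODE M21 for symbols and overlaps.

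All 12 colon libraries (6 groups of 2) entered 1 edgeR 4.0.16 quasi-likelihood fit (R 4.3.3, limma 3.58.1, filterByExpr, TMM factors), with contrasts for each genotype and for differences between responses, Benjamini-Hochberg adjustment over all genes tested and calls at an adjusted p under 0.05. Standard errors came from that fit, and 3 counts were taken as the detection limit. The script was tested on simulated data. The members and the gene lists were chosen with earlier results of these data known. Named genes were Braf and Trp53, up to 15 per direction with the largest changes (average log2 CPM of at least 3), up to 5 called per direction and 3 not called per list, up to 8 per direction for each difference, the 10 most counted per direction, and further list members given only to state their call. Alternatives were DESeq2 1.42.0, limma-voom, RLE size factors, a replicate block, no filter, a filter of 10 counts in each library, the 4 libraries alone, a log2 change of 1 or more and each library left out. A fit without mitochondrially encoded genes was chosen after seeing the data. Small intestinal libraries were not used here, and a few genes are not reported here.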

Additional observations from a re-analysis of the deposited data

Results flagged for a closer look

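The responses of the COL BRAFp53 and COL BRAF cultures differed, by the test of the difference in edgeR, for 172 genes, and those of the COL BRAFp53 and COL p53 cultures for 740 genes. In each of the following genes the value is the log2 response of the double mutant less that of BRAF V600E alone.

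Higher differences were those of Fabp1, a fatty acid carrier (3.98), Cbr2, a carbonyl reductase (2.05), Hao2, a peroxisomal oxidase (1.91), Slc11a2, the iron carrier DMT1 (1.89), Vsig1 (1.78), Sult1c2, a sulfotransferase (1.72), Adh1, an alcohol dehydrogenase (1.67), and Chac1 (1.61). The Fabp1 value rests on low counts in the double mutant, at 0.0931 and 0.275 CPM off and 0.313 and 0.152 CPM on, against 100 and 94.6 CPM off and 7.53 and 8.36 CPM on in the BRAF culture. Fabp1 was not called within the double mutant.

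Lower differences were those of Slc6a19 (-3.1), Ddx60, a helicase of the interferon response (-2.79), Slc15a1 (-2.68), Car4, a carbonic anhydrase (-2.5), Slc10a2, the bile acid carrier ASBT (-2.22), Muc3 (-2.18), Apob, the scaffold of chylomicrons (-1.99), and Cdh13 (-1.95). A lower difference does not mean that the gene fell in the double mutant. Ddx60, Car4, Apob, Slc6a19 and Slc15a1 were not called within it, and Muc3 and Cdh13 rose there, but less than with BRAF V600E alone. The donor mouse differs between the cultures and cannot be told apart from p53 R172H in any of these values.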

How the results depend on the processing

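The count of 3360 called genes was 1332 when a change of 1 or more on the log2 scale was asked for (631 higher and 701 lower) and between 1699 and 2399 with 1 library left out, with 1062 to 1478 higher and 637 to 1057 lower. The other alternatives stayed within 1.5 times of it, with 2659 calls with a replicate block.

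The 172 genes whose responses differed between BRAFp53 and BRAF were 1312 with no filter, 391 with at least 10 counts in every library, 1364 with DESeq2, 97 at a log2 difference of at least 1 and 7 to 279 with 1 library left out. The 740 differences from p53 were 1855 with no filter, 1701 with DESeq2, 470 at a log2 difference of at least 1 and 214 to 782 with 1 library left out. With the replicate block these counts were 17 and 478. Same-numbered libraries did not deviate together (correlations of -0.0128, -0.0127 and 0.0235 in the 3 genotypes), so the numbers were not taken as pairs. The causes of these shifts were not tested.

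Of 422 called genes among those named or listed, 250 were called under every alternative that gave a value and 172 lost the call under at least 1. Gfi1b, a tuft cell factor, reversed from -0.28 to 2.64 on the log2 scale without off replicate 2, and was at -1.18 without off replicate 1. Among list counts of 3 or more outside those of left-out libraries, higher calls with no filter were 11 colonocyte, 8 enterocyte, 8 xenobiotic and 6 transport genes, and lower calls 11 crypt base secretory genes and 5 identity factors. DESeq2 called 6 transport, 7 xenobiotic and 5 ribosome biogenesis genes higher. In the 4 libraries alone, 2 cascade, 3 respiratory chain, 4 lipid synthesis, 7 stress response and 0 ribosome biogenesis genes were called higher and 2 chromatin genes lower. The replicate block left 3 tuft cell genes lower and 2 cascade and 2 interferon genes higher. The median of 7 lists changed sign under at least 1 alternative. With 2 libraries per group, genes near 3 counts have no usable fold change.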
